A study of Homo sapiens with 9 samples.

Results

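The genes described here encode the aminoacyl tRNA synthetases, the enzymes that join each amino acid to its tRNA. They were chosen by name, as protein coding genes listed in both of the study's comparison tables whose symbol was an amino acid letter followed by ARS with an optional 1 or 2, or was EPRS1, FARSA or FARSB. The rule found 36 of the 51105 genes listed in both tables, and all 36 were among the 14581 genes with a mean normalised count above 50 in both. Genes with the suffix 2 were taken as mitochondrial enzymes (16 genes) and the rest as cytosolic enzymes (20 genes). GARS1 and KARS1 are each known to supply both compartments and were counted as cytosolic. MARS2, the mitochondrial methionyl enzyme, was not analysed here.

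RNA held by either of 2 poly(A) binding proteins, the nuclear one (PABPN) and the cytoplasmic one (PABPC), was immunoprecipitated from wildtype HEK293T cells, a widely used line of human embryonic kidney origin. All cells, including those that gave the input RNA, were crosslinked with 0.1% formaldehyde for 10 min. There were 3 libraries of input, 3 of PABPN RNA immunoprecipitation (RIP) and 3 of PABPC RIP, and each biological replicate gave 1 lysate that was divided between the antibodies. The reads counted on the listed genes, a smaller number than the reads sequenced, were estimated at 36.5 to 52.2 M per library. The line's marker transcripts were present in input, with NEFM at 18276, NEFL at 4917 and VIM at 3025 normalised counts per kb of exon. The markers KRT18 at 536 and KRT8 at 95.3 were lower. Transcripts of other cell types were at or near 0 (ALB at 1.47, PTPRC at 0.076, and HBB, CD3E and INS listed at 0).

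Each synthetase activates its amino acid with ATP and transfers it to the matching tRNA, and the enzymes fall into class I and class II by the fold of the catalytic domain. In human cells the mitochondrial set is encoded in the nucleus, translated in the cytoplasm and imported, so the transcripts of both sets are made, polyadenylated and exported in the same way. Several cytosolic enzymes are held together in the multisynthetase complex by the scaffold proteins AIMP1, AIMP2 and EEF1E1. PABPN is known to coat newly made poly(A) tails in the nucleus, and PABPC is known to replace it on mRNAs in the cytoplasm.

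Both proteins bind the tail that is added at the end of the transcript, so the annotated ends are shown for the members on which the results below turn. Each line gives the last 30 bases of the canonical transcript 5′ to 3′ (GENCODE release 44, hg38), with the poly(A) signal AATAAA or its common variant ATTAAA in capitals where either was found on the transcript's strand.
VARS2, the only member enriched with PABPN, chr6:30926430-30926459 (+): gagattgagataaacttttgaaatcccaaa
KARS1, the lowest member with PABPN, chr16:75627724-75627753 (-): aaatttctttttaatcctgttaccaaataa
QARS1, the highest member with PABPC, chr3:49095932-49095961 (-): gtcAATAAAgaacagctaaattctcctaga
FARSA, the next highest with PABPC, chr19:12922479-12922508 (-): attgtctAATAAAgtgggcagttgccccca
FARS2, the lowest member with PABPC, chr6:5771554-5771583 (+): cagaaAATAAAagatcgctcttgaaaagct
NARS2, the next lowest with PABPC, chr11:78435968-78435997 (-): gtctAATAAAatagatttttttaatagaca
HARS1, cytosolic neighbour of HARS2, chr5:140673905-140673934 (-): aaaggtccAATAAAatgcctcaaccacgga
HARS2, mitochondrial neighbour of HARS1, chr5:140699276-140699305 (+): gataacatgttaAATAAAatattaagtgta

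AATAAA lay within these 30 bases in 25 of the 36 members (69.4%) and ATTAAA in 3 more (8.33%), against 55.6% and 12.8% of 20427 protein coding genes with a canonical transcript. Those 20427 genes were taken whether or not they were expressed here, while all members had a mean count above 50, so the sets are unlike. Among cytosolic enzymes 16 of 20 had AATAAA, and among mitochondrial enzymes 9 of 16. The members at either extreme of the PABPC comparison, QARS1 and FARS2, both carried AATAAA. No match says only that these letters are not in this window of the annotated transcript, as for VARS2 and KARS1.

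The deposited values are DESeq2 comparisons of each RIP with input. Values per library were not analysed here, so the data of a gene are given as the mean normalised count of the 3 input libraries and of the 3 RIP libraries, with the log2 fold change and its standard error (SE), which carries the spread between replicates. Reads in introns and exons were counted together. A gene was called enriched or depleted with a log2 fold change beyond 0.5 in either direction and an adjusted p of at most 0.01. Fold changes are relative to all RNA in the libraries, and both comparisons share the same input libraries. Counts were scaled within each comparison, so a gene has a different input mean in each. The median log2 ratio of the PABPC to the PABPN input means was -0.23. Counts are therefore to be compared only within a comparison.

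Before the RIPs were compared, the level of each gene in input, on the scale of the PABPN comparison, was set per kb of exon. Cytosolic enzymes had a median of 1241 normalised counts per kb (range 326 to 4041), and mitochondrial enzymes had a median of 588 (range 145 to 2381). IARS1, the cytosolic isoleucyl enzyme, was the highest member per kb at 4041, and EPRS1, a fusion of the glutamyl and prolyl enzymes, followed at 2503. These levels and their ranks depend on the length deposited for each gene, which need not be that of its main mRNA. LARS1 had 14144 normalised counts in input, above EPRS1 at 13322. It stood at 685 per kb because its listed length was 20.6 kb, with 3.53 kb of coding sequence. The lowest member was PARS2, the mitochondrial prolyl enzyme, at 145 normalised counts per kb. Of 17 comparisons between the mitochondrial and the cytosolic gene for the same amino acid, the mitochondrial gene was lower in 11, with a median ratio of 0.65. Intronic reads are part of these levels, and the mitochondrial genes with the highest values, FARS2 at 2381 and NARS2 at 2074 normalised counts per kb, had 563 and 123 kb of intron. Here and below, kb of intron means the part of the gene's span that no annotated transcript covers with an exon.

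**Figure D1:**
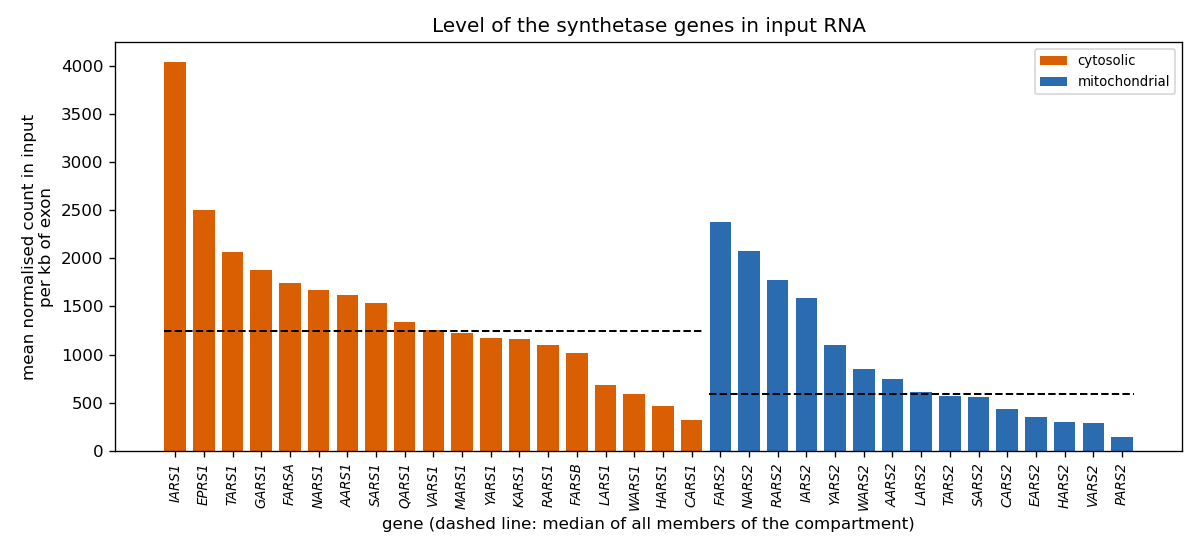
Mean normalised count of the 3 input libraries per kb of exon (vertical axis, linear from 0) for 34 of the 36 genes, sorted within the cytosolic (orange) and mitochondrial (blue) enzymes. Dashed lines mark the medians over all members, 1241 for cytosolic and 588 for mitochondrial enzymes, and no error is drawn because values per library were not analysed here.

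To ask which synthetase transcripts PABPN held relative to total RNA, the members were first examined in the PABPN RIP. Depletion was the main pattern, with 14 of 36 members depleted (38.9%) and 1 enriched (2.78%). Over all genes tested 14.6% were depleted and 17.5% enriched, and over protein coding genes 16.5% were depleted and 15.1% enriched. The members' median log2 fold change was -0.42, and that of protein coding genes was -0.087 (quartiles -0.38 to 0.29).

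The depletion from PABPN was found mostly among cytosolic enzymes. All 20 had a log2 fold change below 0, from -1.35 to -0.042 with a median of -0.55, and 11 of 20 were depleted. Mitochondrial enzymes lay on either side of 0, with 8 above and 8 below and a median of -0.058. In that set 3 of 16 were depleted and 1 was enriched. Genes are not replicates of a compartment, so the difference between the sets is a description without a test.

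KARS1, the lysyl enzyme of both compartments, was the lowest member with PABPN. Its mean normalised count was 4742 in input and 1859 in the PABPN RIP, a log2 fold change of -1.35 ± 0.16 (SE, adjusted p 2.80e-16 from DESeq2). The gene lies at chr16:75627474-75648643 with 17.1 kb of intron. EPRS1 (chr1:219968600-220046530) went from 13322 in input to 6350 in the PABPN RIP, a log2 fold change of -1.07 ± 0.15 (adjusted p 3.14e-11 from DESeq2). TARS1, the cytosolic threonyl enzyme (chr5:33440696-33468091), went from 11798 to 5636, also a log2 fold change of -1.07, with SE 0.11 (adjusted p 1.12e-20 from DESeq2). These 3 transcripts were at 0.48-fold of input or below in the PABPN RIP.

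The remaining depleted cytosolic enzymes had smaller changes in the PABPN RIP. VARS1, the valyl enzyme, had a log2 fold change of -0.92, and GARS1, the glycyl enzyme of both compartments, had -0.87. FARSB, the beta subunit of the cytosolic phenylalanyl enzyme, had -0.72, and FARSA, its catalytic alpha subunit, had -0.53. WARS1, the interferon-inducible tryptophanyl enzyme, had -0.65, as did NARS1, the asparaginyl enzyme (-0.65). QARS1, the glutaminyl enzyme, had -0.61 and AARS1, the alanyl enzyme, had -0.58. The FARSA value lay just beyond the cut-off and inside it (-0.48) when fold changes were centred on the median of all genes.

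The cytosolic enzymes that were not called with PABPN lay between -0.47 and -0.042 on the log2 scale. IARS1 had a log2 fold change of -0.47 and SARS1, the seryl enzyme that also charges the selenocysteine tRNA, had -0.44. MARS1, the methionyl enzyme that supplies the initiator tRNA, had -0.41 and RARS1, the arginyl enzyme, had -0.40. LARS1, the leucyl enzyme known as a leucine sensor, had -0.34. HARS1, the histidyl enzyme, and YARS1, the tyrosyl enzyme, were closest to input, at -0.15 and -0.14, together with CARS1, the cysteinyl enzyme, at -0.042.

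VARS2, the mitochondrial valyl enzyme, was the only member enriched with PABPN. Its mean normalised count was 1854 in input and 4659 in the PABPN RIP, a log2 fold change of 1.33 ± 0.12 (adjusted p 5.81e-29 from DESeq2). This is a 2.51-fold change, above the value of 98.0% of protein coding genes in that comparison. VARS2 lies at chr6:30914205-30926459 and has 5.79 kb of intron. The next highest members were not called. SARS2, the mitochondrial seryl enzyme, had 1735 in input and 2252 in the PABPN RIP (log2 fold change 0.38 ± 0.14, adjusted p 0.0173 from DESeq2), and AARS2, the mitochondrial alanyl enzyme, had 3933 and 5064 (0.36 ± 0.11, adjusted p 0.00289 from DESeq2). AARS2 met the limit on p but not that on the size of the change.

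The mitochondrial enzymes depleted from PABPN included IARS2 (isoleucyl) and LARS2 (leucyl). IARS2 had a log2 fold change of -0.93 ± 0.10, from 6577 normalised counts in input to 3442 in the PABPN RIP, and LARS2 had -0.53 ± 0.15, from 7549 to 5236, which was no longer called once centred (-0.49). The mitochondrial enzymes below 0 that were not called were WARS2 at -0.43, RARS2 at -0.33, FARS2 at -0.32, PARS2 at -0.17 and NARS2 at -0.15 on the log2 scale. The rest of those named above 0 were YARS2 at 0.30, HARS2 at 0.21, EARS2 at 0.092, CARS2 at 0.081 and TARS2 at 0.034. IARS2 thus lay among the most depleted cytosolic enzymes in size of change.

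The same genes were then examined in the PABPC RIP, where the changes were wider and went both ways. Of the 36 members 14 were enriched (38.9%) and 6 were depleted (16.7%), with a median log2 fold change of 0.33. Over all genes tested 38.4% were enriched and 32.4% depleted, and over protein coding genes 41.2% were enriched and 27.9% depleted, so the share of enriched members was near the background. The median of protein coding genes was 0.25 (quartiles -0.65 to 1.05) and that of all genes tested was 0.14.

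With PABPC the medians of both sets of enzymes were close, and the mitochondrial set covered the wider range. Cytosolic enzymes had a median log2 fold change of 0.28 (range -0.68 to 1.26) with 8 of 20 enriched and 1 depleted. Mitochondrial enzymes had a median of 0.36 (range -3.59 to 1.06) with 6 of 16 enriched and 5 depleted. FARS2 set the lower end of that range, and the next lowest mitochondrial value was -1.39.

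QARS1 was the member most enriched with PABPC, from a mean of 5397 normalised counts in input to 12966 in the PABPC RIP. Its log2 fold change was 1.26 ± 0.15 (adjusted p 3.80e-16 from DESeq2), and the gene (chr3:49095932-49105130) has 4.50 kb of intron. FARSA (chr19:12922479-12934037) went from 3630 to 8524, a log2 fold change of 1.23 ± 0.14 (adjusted p 3.13e-18 from DESeq2). SARS1 (chr1:109213918-109238182) went from 5039 to 10622, a log2 fold change of 1.08 ± 0.18 (adjusted p 3.13e-09 from DESeq2). These 3 values lie close together relative to their standard errors, and each corresponds to at least a 2.11-fold level over input.

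The other enriched cytosolic enzymes were KARS1, at a log2 fold change of 1.03, YARS1 at 0.90, WARS1 at 0.78, NARS1 at 0.68 and HARS1 at 0.62. The enriched mitochondrial enzymes were PARS2 at 1.06, EARS2 (glutamyl) at 0.94, TARS2 (threonyl) at 0.71, IARS2 at 0.71, HARS2 at 0.69 and VARS2 at 0.58. Centred on the median of all genes, HARS1 (0.48) and VARS2 (0.44) were no longer called. PARS2, the least abundant member in input, was the most enriched of the mitochondrial set, with a mean of 292 normalised counts in input and 607 in the PABPC RIP.

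FARS2, the single-chain phenylalanyl enzyme of mitochondria, was depleted from PABPC far more than any other member. Its mean normalised count was 9854 in input and 818 in the PABPC RIP, a log2 fold change of -3.59 ± 0.13 (adjusted p 3.77e-159 from DESeq2). This left 0.083-fold of the input level, and 0.795% of protein coding genes had a lower value. FARS2 spans chr6:5261044-5829192 and holds 563 kb of intron, the longest of the members. NARS2, the mitochondrial asparaginyl enzyme (chr11:78435620-78575194), went from 5583 to 2129, a log2 fold change of -1.39 ± 0.15 (adjusted p 5.54e-21 from DESeq2). FARSB (chr2:222566899-222656092) went from 5866 to 3665, a log2 fold change of -0.68 ± 0.14 (adjusted p 6.13e-06 from DESeq2), and was the only depleted cytosolic enzyme.

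The other members depleted from PABPC were mitochondrial and had smaller changes. LARS2 had a log2 fold change of -0.66, RARS2 (arginyl) had -0.63 and WARS2 (tryptophanyl) had -0.51. Members that were not called with PABPC ran from -0.48 to 0.39 on the log2 scale. Below 0 these were CARS1 at -0.48, CARS2 at -0.33, EPRS1 at -0.32, LARS1 at -0.25, IARS1 at -0.21 and AARS1 at -0.10. Above 0 they included YARS2 at 0.13, RARS1 at 0.19, TARS1 at 0.21, VARS1 at 0.26, MARS1 at 0.29, AARS2 at 0.36, SARS2 at 0.37 and GARS1 at 0.39. YARS2 turned below 0 (-0.0074) when the fold changes were centred on the median of all genes. CARS1 had the largest standard error of the members in this comparison (0.39), so its value is the least certain.

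**Figure D2:**
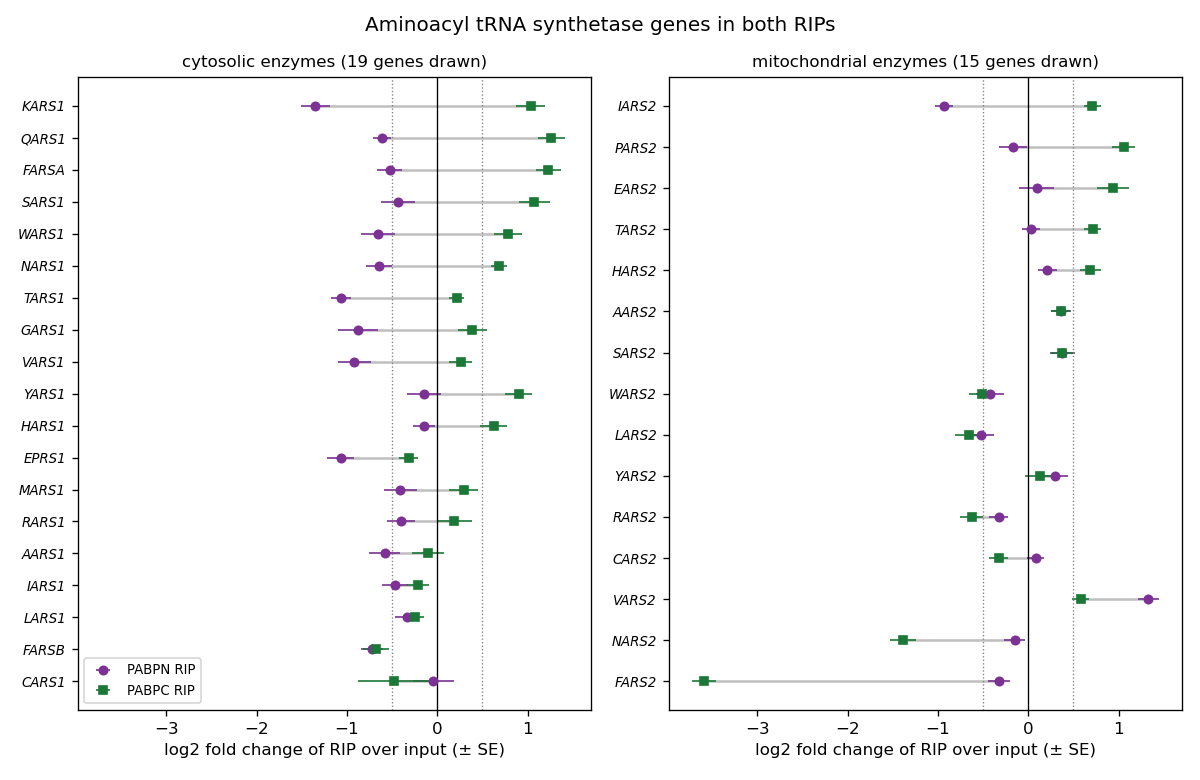
Log2 fold change over input with SE (horizontal axis) in the PABPN RIP (purple circles) and the PABPC RIP (green squares) for 19 cytosolic (left) and 15 mitochondrial (right) genes, ordered by the difference between the RIPs. Dotted lines mark the cut-off of 0.5 in either direction; all cytosolic PABPN values lie below 0, VARS2 is the only PABPN value above 0.5, and FARS2 is far to the left with PABPC (-3.59).

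To see how the RIPs differed for each gene, the PABPC log2 fold change was subtracted from the PABPN log2 fold change. The difference was tested with a normal test on the combined standard errors, adjusted by the Benjamini-Hochberg method (BH) over the 14581 genes. A gene was called at an adjusted p of at most 0.01 and a difference beyond 0.5. By this test 18 of 36 members were higher with PABPC and 3 were higher with PABPN. Over all genes 33.4% were higher with PABPC and 36.1% with PABPN, and over protein coding genes these shares were 37.8% and 30.6%. The median difference was -0.64 for the members and -0.12 for protein coding genes.

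Cytosolic enzymes lay almost wholly on the PABPC side. In 19 of 20 the difference was below 0, 13 were called higher with PABPC and none of the 20 was called higher with PABPN, with a median of -0.91. The exception in sign was CARS1, at 0.44 with a 95% interval of -0.44 to 1.32. Mitochondrial enzymes were split, with 5 of 16 higher with PABPC, 3 higher with PABPN and a median of 0.047, which turned to -0.021 when the differences were centred on the median of all genes.

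The largest differences toward PABPC were those of KARS1 (-2.39 ± 0.23, adjusted p 5.29e-25 by the normal test with BH), QARS1 (-1.87 ± 0.18, adjusted p 5.60e-24) and FARSA (-1.76 ± 0.20, adjusted p 1.12e-18). KARS1 combined the strongest depletion from PABPN with a 2.05-fold level over input in the PABPC RIP, where its mean went from 4059 to 8311 normalised counts (log2 fold change 1.03 ± 0.16, adjusted p 7.95e-10 from DESeq2). QARS1 went from 6312 in input to 4136 in the PABPN RIP (-0.61 ± 0.10, adjusted p 1.66e-08 from DESeq2), and FARSA went from 4243 to 2947 (-0.53 ± 0.14, adjusted p 5.92e-04 from DESeq2).

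The 3 members higher with PABPN were all mitochondrial, and only VARS2 was also called with PABPN. For FARS2 the difference was 3.27 ± 0.18 (adjusted p 2.48e-71 by the normal test with BH) and for NARS2 it was 1.24 ± 0.19 (adjusted p 5.77e-11). Neither was enriched with PABPN: FARS2 had 11519 normalised counts in input and 9228 in the PABPN RIP (-0.32 ± 0.12, adjusted p 0.0251 from DESeq2), and NARS2 had 6525 and 5880 (-0.15 ± 0.11, adjusted p 0.313 from DESeq2). VARS2 in contrast was enriched in both RIPs. Its PABPC mean went from 1585 to 2370 (0.58 ± 0.097, adjusted p 6.87e-09 from DESeq2), and the difference was 0.75 ± 0.15 (adjusted p 1.30e-06 by the normal test with BH).

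Depletion from PABPN together with enrichment with PABPC was found in 6 members, FARSA, IARS2, KARS1, NARS1, QARS1 and WARS1, of which 5 were cytosolic. This pair of calls was found in 10.8% of the 12452 protein coding genes tested in both tables. The opposite pair was found in none of the 36 members and in 1.60% of protein coding genes. For IARS2 (chr1:220094132-220148041) the PABPN log2 fold change had an adjusted p of 4.53e-19, and with PABPC it went from 5623 to 9200 normalised counts (0.71 ± 0.094, adjusted p 2.23e-13, both from DESeq2). NARS1 (chr18:57600656-57622213) went from 6829 to 4367 with PABPN (-0.65 ± 0.15, adjusted p 7.75e-05 from DESeq2) and from 5837 to 9371 with PABPC (0.68 ± 0.089, adjusted p 7.90e-14 from DESeq2). WARS1 (chr14:100333790-100376805) went from 3724 to 2369 with PABPN (-0.65 ± 0.19, adjusted p 0.00200 from DESeq2) and from 3180 to 5468 with PABPC (0.78 ± 0.15, adjusted p 1.06e-06 from DESeq2). IARS2 was the mitochondrial member of this group, and its difference of -1.64 was near that of FARSA.

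FARSB and LARS2 were depleted in both RIPs, as were 2.50% of protein coding genes. For FARSB the PABPN mean went from 6856 to 4149 (-0.72 ± 0.12, adjusted p 1.66e-08 from DESeq2), and its difference between the RIPs was -0.046 ± 0.19. LARS2 had a difference of 0.13 ± 0.22. The subunits of the cytosolic phenylalanyl enzyme, which act together as a tetramer, were therefore called in opposite directions with PABPC, FARSA being enriched and FARSB depleted, while both were depleted from PABPN. FARSA has 9.13 kb of intron and FARSB has 82.4 kb.

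Depletion from PABPN alone was called in 6 members, among them AARS1, EPRS1, GARS1, TARS1 and VARS1, and in 3.65% of protein coding genes. Depletion from PABPC alone was called in FARS2, NARS2, RARS2 and WARS2, all mitochondrial, and in 24.1% of protein coding genes. Enrichment with PABPC alone was called in EARS2, HARS1, HARS2, PARS2, SARS1, TARS2 and YARS1, and in 22.8% of protein coding genes. The call of VARS2, enriched in both, was shared by 7.24% of protein coding genes. The remaining 10 members were called in neither RIP, as were 21.3% of protein coding genes.

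For GARS1 and KARS1 the same gene supplies the cytosol and the mitochondria, through alternative starts or splice forms that the counts do not separate. GARS1 (chr7:30580533-30634033) had 7510 normalised counts in input and 4100 in the PABPN RIP (-0.87 ± 0.22, adjusted p 3.40e-04 from DESeq2). In the PABPC RIP it had 6412 and 8401 (0.39 ± 0.17, adjusted p 0.0306 from DESeq2), which was not called. Its difference was -1.26 ± 0.28 (adjusted p 8.67e-06 by the normal test with BH). Both genes lay on the PABPC side, KARS1 beyond every other cytosolic enzyme and GARS1 within their range. SARS1, the third highest with PABPC, had 5900 in input and 4359 in the PABPN RIP (-0.44 ± 0.19, adjusted p 0.0491 from DESeq2) and a difference of -1.51 ± 0.26 (adjusted p 1.03e-08 by the normal test with BH).

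HARS1 and HARS2 lie head to head on chromosome 5, at chr5:140673035-140691537 and chr5:140691430-140699305, and overlap by 108 bases at their 5′ ends in GENCODE release 44. Stretches shared by genes were left out of the counts. They are closely related in sequence, so reads may have been hard to assign between them. With PABPC both were enriched: HARS1 went from 2970 to 4580 (0.62 ± 0.15, adjusted p 4.90e-05 from DESeq2) and HARS2 from 954 to 1538 (0.69 ± 0.11, adjusted p 4.21e-09 from DESeq2). Neither was called with PABPN, HARS1 having 3471 and 3138 (-0.15 ± 0.13, adjusted p 0.378 from DESeq2) and HARS2 having 1116 and 1291 (0.21 ± 0.11, adjusted p 0.107 from DESeq2). HARS2 minus HARS1 was 0.36 with PABPN, with a 95% interval of 0.033 to 0.68, and 0.064 with PABPC, with an interval of -0.30 to 0.43.

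To compare the compartments gene by gene, each mitochondrial enzyme was set against the cytosolic enzyme for the same amino acid, within a RIP. There were 17 such pairs, with EPRS1 set against both EARS2 and PARS2, and FARS2 against both FARSA and FARSB, so the pairs are not independent. With PABPN the mitochondrial gene had the higher log2 fold change in 14 of 17, with a median difference of 0.40, and the 95% interval lay above 0 in 9, below 0 in 2 and held 0 in 6. Valine gave the widest gap, VARS2 minus VARS1 being 2.25 (interval 1.83 to 2.66). EARS2 minus EPRS1 was 1.16 (0.68 to 1.65), and TARS2 minus TARS1 was 1.10 (0.81 to 1.39). The reverse was found for IARS2 minus IARS1 at -0.47 (-0.81 to -0.13).

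With PABPC the pairs did not lean to either compartment. The interval lay above 0 in 7 pairs, below 0 in 8 and held 0 in 2, with a median difference of 0.064. FARS2 minus FARSA was -4.82 (-5.20 to -4.45), NARS2 minus NARS1 was -2.07 (-2.41 to -1.74) and WARS2 minus WARS1 was -1.29 (-1.71 to -0.88). In the other direction PARS2 minus EPRS1 was 1.37 (1.05 to 1.70) and IARS2 minus IARS1 was 0.92 (0.62 to 1.23). In all 7 pairs with an interval above 0 the mitochondrial gene had less intron than its partner, and in 6 of the 8 with an interval below 0 it had more, the exceptions being SARS2 and YARS2. With PABPN the mitochondrial gene had less intron in 7 of the 9 pairs above 0 and in the 2 below 0. It had more in 5 of the 6 PABPN pairs whose interval held 0.

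**Figure D3:**
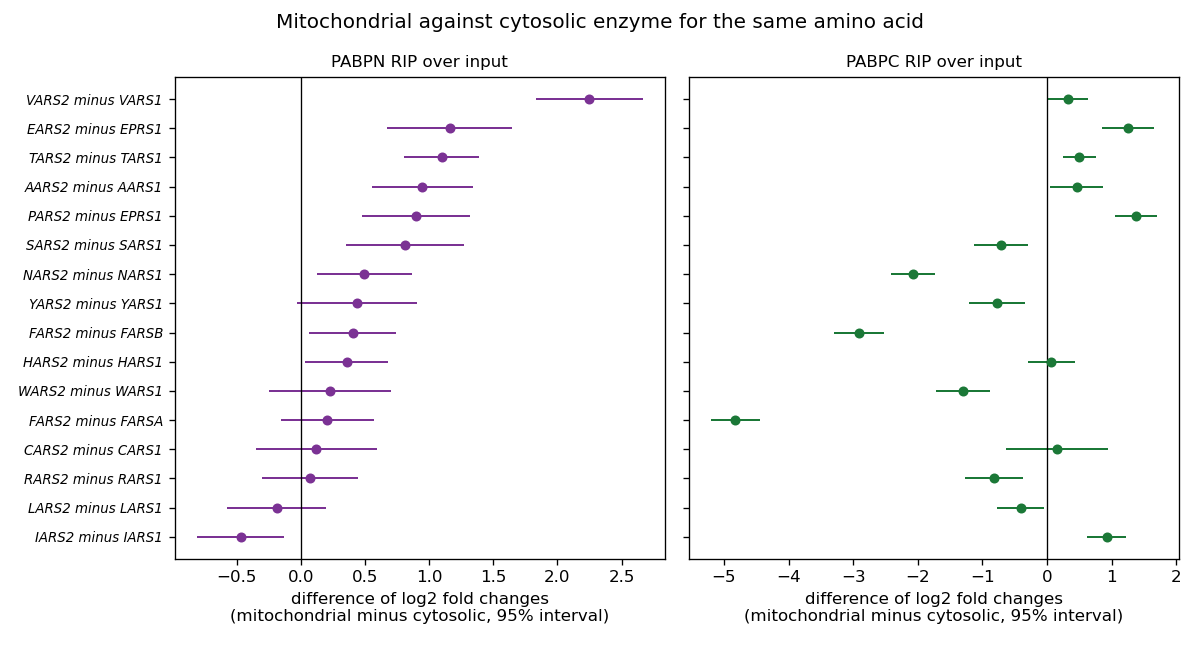
Difference of log2 fold changes, mitochondrial minus cytosolic gene for the same amino acid, with its 95% interval (horizontal axes, whose ranges differ) in the PABPN RIP (left) and the PABPC RIP (right), for 16 of the 17 pairs. With PABPN 14 points lie above 0, led by VARS2 minus VARS1 (2.25), and with PABPC the points spread from -4.82 to 1.37.

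The gene structures were therefore set beside the fold changes. The members' intronic length, the gene span outside every annotated exon, ran from 4.16 kb (HARS2) to 563 kb (FARS2). Its median was 31.2 kb for cytosolic and 28.4 kb for mitochondrial enzymes. An intron that an exon of another transcript covers is not counted in it. Coding sequences were of 360 (WARS2) to 1512 (EPRS1) codons, with medians of 692 and 544. Members with more intron had lower PABPC values, with a Spearman correlation of -0.75 across the 36 genes. It was -0.74 among the 20 cytosolic and -0.75 among the 16 mitochondrial enzymes, and -0.73 without FARS2. Over 12190 protein coding genes with an intron it was -0.77. With PABPN the correlation was -0.20 over the members, with -0.59 among mitochondrial and 0.072 among cytosolic enzymes, and -0.17 over protein coding genes. These correlations are across genes measured in the same libraries and are given as descriptions.

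The members were divided into 3 groups of 12 by intronic length, and all protein coding genes with introns in the same range were set beside each. The 12 members with the shortest introns (4.16 to 17.5 kb), among them QARS1, FARSA and KARS1, had a median PABPC log2 fold change of 0.69, against 0.98 for 2744 coding genes. None of these 12 was depleted from PABPC and 9 were enriched, where 2.88% of the coding genes of that range were depleted and 71.7% enriched. The middle 12 (20.4 to 46.7 kb) had a median of 0.34, against 0.29 for 2716 coding genes. The longest 12 (49.8 to 563 kb) had a median of -0.42, against -0.77 for 4487 coding genes, and held all 6 depleted members, where 60.6% of the coding genes of that range were depleted. IARS2 was the exception there, being enriched with PABPC with 49.8 kb of intron, a call made for 7.64% of the coding genes of that range.

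With PABPN the same division gave medians of -0.16 for the shortest, -0.42 for the middle and -0.43 for the longest 12 members. The corresponding values for coding genes were 0.071, -0.034 and -0.18, each above that of the members. For the difference between the RIPs the middle 12 had a median of -0.94, against -0.28 for coding genes with introns of that range, and 8 of these 12 were higher with PABPC, a call made for 38.8% of those coding genes. The longest 12 had a median of 0.020, against 0.71. The shortest 12, at -0.97 against -0.90, lay near the coding genes of their range.

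**Figure D4:**
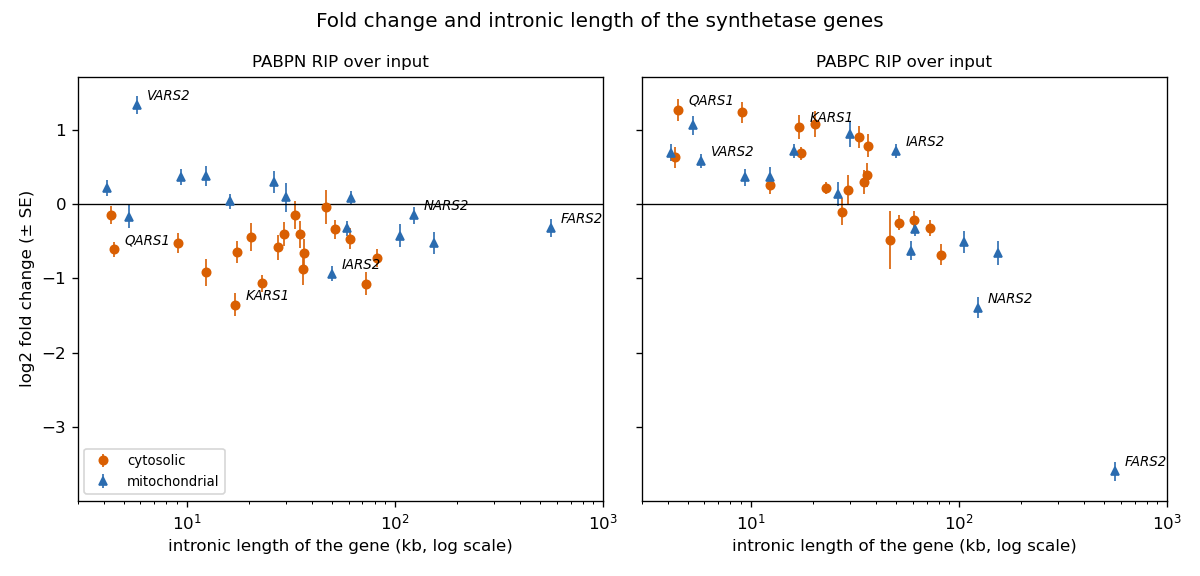
Log2 fold change over input with SE (vertical axis) against intronic length in kb (horizontal log axis) for cytosolic (orange circles) and mitochondrial (blue triangles) genes, 34 of the 36 members, with PABPN on the left and PABPC on the right. The PABPC values fall from QARS1 (1.26) to FARS2 (-3.59) as introns lengthen (Spearman -0.75 over all 36), while with PABPN the correlation is -0.59 among mitochondrial and 0.072 among cytosolic enzymes, with VARS2 apart at 1.33.

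Length of the coding sequence showed a weaker relation with PABPC. The Spearman correlation was -0.51 among cytosolic enzymes, where EPRS1, IARS1 and LARS1 are long and not enriched, and 0.26 among mitochondrial enzymes. Over protein coding genes it was -0.54. The level in input per kb of exon also ran differently in the sets, with a correlation with the PABPC fold change of 0.12 among cytosolic and -0.71 among mitochondrial enzymes. FARS2 and NARS2, high in input and long in intron, and PARS2, low in input and short in intron, were at the ends of the latter. With the PABPN fold change the input level correlated below 0 in both sets. The values were -0.50 among cytosolic and -0.37 among mitochondrial enzymes, and -0.53 over all 36. The input level is also the denominator of the fold change, so error in it can by itself lower these correlations. No value over protein coding genes is given here for comparison. Whether the input level accounts for the difference between the sets with PABPN was not tested.

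Membership of the multisynthetase complex was examined next. Its 8 enzymes (among them EPRS1, IARS1, KARS1, LARS1, MARS1, QARS1 and RARS1) all lay below 0 with PABPN, with a median of -0.45 and 3 depleted. The 12 cytosolic enzymes outside it had a median of -0.61 with 8 depleted. With PABPC 2 of the 8 complex enzymes were enriched and none depleted (median 0.11), and 6 of the 12 others were enriched and 1 depleted (median 0.51). Over protein coding genes 16.5% were depleted from PABPN, and with PABPC 41.2% were enriched and 27.9% depleted. KARS1 and QARS1 were the enriched complex enzymes, and they have less intron than the other 6. By catalytic fold, the 17 class I genes and the 18 class II genes had PABPN medians of -0.40 and -0.43 and PABPC medians of 0.19 and 0.39, with EPRS1, which holds both folds, left out.

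The other genes of the aminoacylation pathway were examined as a list of 23 scaffold, partner, editing, maturation and delivery genes. With PABPN 4 were enriched and 7 depleted (15.1% and 16.5% of protein coding genes), and with PABPC 13 were enriched and 2 depleted (41.2% and 27.9%). In the test of the difference 11 were higher with PABPC and 2 with PABPN (37.8% and 30.6%). The 3 scaffold proteins of the complex were each enriched with PABPC, at log2 fold changes of 0.51 for AIMP1, 0.82 for AIMP2 and 0.54 for EEF1E1. The AIMP1 and EEF1E1 values lay just beyond the cut-off of 0.5, where the median of all genes was 0.14. With PABPN the 3 scaffold proteins went apart, AIMP2 being depleted (-0.66 ± 0.17, adjusted p 5.57e-04 from DESeq2), EEF1E1 enriched (0.75 ± 0.12, adjusted p 3.36e-09 from DESeq2) and AIMP1 not called at 0.42. EEF1E1 thus lay above 0 with PABPN, whereas all 8 enzymes it helps to hold together lay below.

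Mitochondria have no glutaminyl enzyme of their own and convert glutamate on the tRNA with the amidotransferase of QRSL1, GATB and GATC. GATC was enriched with PABPN (0.67 ± 0.10, adjusted p 1.56e-09 from DESeq2) and with PABPC (1.45 ± 0.12, adjusted p 2.94e-34 from DESeq2). QRSL1 (-0.18 and 0.21) and GATB (-0.49 and -0.15) were called in neither RIP. Of the 3 subunits only GATC was therefore called. TARS3, a cytosolic paralog of TARS1 that the naming rule left out, was called in neither RIP (-0.43 and -0.48), with a difference of 0.057 between the RIPs, where TARS1 had -1.28.

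Among the 10 genes of tRNA maturation and export 5 were enriched with PABPC and 2 depleted, and 4 were depleted from PABPN and 1 enriched, to be read against the same shares of protein coding genes. From this list RTCB and TSEN34 are named after their values were seen. RTCB, the tRNA ligase, was depleted from PABPN (-0.87) and enriched with PABPC (0.74), as was TSEN34, a subunit of the tRNA splicing endonuclease (-0.77 and 2.21). EEF1A1, which delivers charged tRNAs to the cytoplasmic ribosome, was depleted from PABPN (-2.05) and enriched with PABPC (1.81). TUFM, its mitochondrial counterpart, was not called with PABPN (-0.48) and was enriched with PABPC (1.95).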

How the data were processed

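The authors aligned the single-end 75 nt reads of the 9 ribodepleted, stranded libraries to hg38 with STAR. Exonic and intronic reads were counted together by the authors with featureCounts 2.0.2, on an annotation built from GENCODE release 34 with NCBI genes added and stretches shared by genes removed. Genes with transcription running in from upstream were taken out by the authors for each RIP. Each RIP was then fitted against input by the authors with DESeq2, which gave 1 table per RIP. The strand setting, the design formula and the versions of STAR and DESeq2 are not given in the sources used here. The deposited signal, baseMean, is the mean over 6 libraries of counts divided by size factors. The deposited log2 columns hold the fold change and its standard error. The deposited score is the Wald statistic. The deposited p-value columns hold the Wald p and its Benjamini-Hochberg adjusted form. These columns are the authors' own fits and were used as deposited, with the study's cut-offs.

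Group means were worked out from baseMean and the fold change. The difference between the RIPs was tested with a two-sided normal test whose error combined both standard errors. A check on simulated data drew from these same errors with no shared input. It therefore covers the calculation only and cannot show that the error suits these libraries. The input libraries are shared by both tables, so the combined error is too large, and an alternative took the shared variance out. Intervals are 95% intervals from the standard errors. Size factors, and from them the reads counted on the listed genes (36.5 to 52.2 M per library), were estimated from genes with 1 read in 1 library. Intronic length, coding length and transcript ends came from GENCODE release 44. Intronic length was the gene span minus all bases annotated as exon in any transcript of the gene. Python 3.11.15, pandas 2.3.3 and SciPy 1.17.1 were used.

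Members and gene lists were chosen with earlier results of these data known. The values of 2 members and of 1 gene of the pathway lists are not reported here, though counts, medians and correlations include them, and all other members were named with both fold changes. Group means, errors and adjusted p were given for the 3 highest and lowest in each comparison, the 3 largest differences each way, members with opposite calls, and GARS1, KARS1, HARS1 and HARS2.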

Additional observations from a re-analysis of the deposited data

How the results depend on the processing

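No paired analysis was possible because values per library were not analysed here, and leaving out each replicate was not run for the same reason. The size cut-offs moved the counts most. A log2 cut-off of 1 and a Wald test that the change exceeds 0.5 each left 5 members enriched with PABPC (4 cytosolic, 1 mitochondrial) and 2 depleted (0 cytosolic, 2 mitochondrial). Depletion from PABPN was kept by 3 members with a cut-off of 1 (3 cytosolic, 0 mitochondrial) and by 5 with the test beyond 0.5 (3 cytosolic). With a difference beyond 1, 3 mitochondrial members were higher with PABPC. Shares over all genes at these stricter settings are not given here, so these counts cannot be read against a background. Centring on the median of all genes moved the mitochondrial PABPC median to 0.22 and the mitochondrial median difference to -0.021, turned the PABPC value of YARS2 (-0.0074) below 0, and turned the differences of AARS2 (-0.061) and SARS2 (-0.061) below 0, since the centre itself lay at 0.14 for PABPC and 0.068 for the difference. Of 408 values of single members under the alternatives, 348 kept their direction and their side of the cut-offs, 55 were no longer called and 2 became called. A baseMean above 200 changed no call of a member. Without GARS1, KARS1, HARS1 and HARS2, the PABPN medians were -0.53 for cytosolic and -0.15 for mitochondrial enzymes. The median differences between the RIPs were then -0.75 for cytosolic and 0.086 for mitochondrial enzymes. With the variance of the shared input taken out, RARS1 (-0.59) was also called higher with PABPC.

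The comparisons rest on 3 libraries a group, and replicate spread is known only as the standard error (median over the members 0.14 in both comparisons). Spliced and unspliced RNA were not separated, isoforms were not resolved, and the compartment of an enzyme was taken from its gene name. Counts of calls over 36 genes are descriptions without a test of the set. No IgG control libraries were analysed here.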
